A study of Mus musculus with 28 samples.

Results

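Genes of lipid synthesis and uptake were followed through cells sorted from mouse lung, 8 chosen by name out of 23350 genes in any table and 19375 with a value in every table. They were Acly, Fasn and Scd1 of fatty acid synthesis, Fdps and Sqle of cholesterol synthesis, the regulators Srebf1 and Insig1, and the lipoprotein receptor gene Scarb1. All 8 were listed in each of the 28 libraries. RNA had been taken from type 2 and type 1 alveolar epithelial cells (AEC2 and AEC1, 6 libraries each), group 2 innate lymphoid cells (ILC2, 9 libraries) and cells labelled basophils (7 libraries). All mice were wild-type C57BL/6 animals aged 8 weeks. They had been given papain with FK506, papain alone, or nothing. Papain, a plant protease that provokes allergic lung inflammation, was dosed through the nose at 50 µg in 40 µL per day. FK506 (tacrolimus), an inhibitor of the phosphatase calcineurin, was dosed into the peritoneum at 0.2 mg per day, in courses of 3 days, the later course together with papain. Each AEC group held 2 libraries and each ILC2 group 3. The basophil label had 3 libraries from papain with FK506, 3 from papain and 1 from untreated mice, whose title names 2 controls. Nothing in the labels says whether libraries came from separate mice, so each p-value measures only the spread between libraries. The values are CPM, read counts of transcript 3′ ends scaled to a common total.

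AEC2 make pulmonary surfactant, a film of phospholipid with cholesterol and small proteins, and for this they draw on fatty acid synthesis and on lipids taken up from blood. Srebf1 encodes SREBP-1, a membrane-bound transcription factor that is cut free to switch on lipogenic genes. Insig1 encodes the protein that holds the SREBP carrier in the endoplasmic reticulum when sterols are plentiful, and it is itself an SREBP target.

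RefSeq promoter windows (GRCm38.p6, 250 bases before to 50 bases after a start) were held for 4 of the 8 genes, as 6 entries, of which 5 are printed. They are shown for each of the 8 genes that had one. Of the genes that rose in AEC2 against AEC1, only Acly had an entry, and Scd1, Fdps and Sqle had none. Fasn and Srebf1 had similar estimates that missed the threshold, and the Insig1 estimate was −0.64 (SE 1.19). Whether the letters go with the direction of a difference was not tested. In each line, capitals mark the letters CCAAT, bound by the factor NF-Y, and CACGTG, a palindromic E-box, on either strand.
Acly (chr11:100527951-100528250, minus strand): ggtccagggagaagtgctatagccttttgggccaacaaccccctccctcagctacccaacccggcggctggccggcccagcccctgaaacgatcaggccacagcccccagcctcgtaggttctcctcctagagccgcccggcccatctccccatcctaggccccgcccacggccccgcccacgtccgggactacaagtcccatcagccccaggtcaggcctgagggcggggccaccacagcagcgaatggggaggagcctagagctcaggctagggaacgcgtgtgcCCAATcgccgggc
Fasn (chr11:120824498-120824797, minus strand): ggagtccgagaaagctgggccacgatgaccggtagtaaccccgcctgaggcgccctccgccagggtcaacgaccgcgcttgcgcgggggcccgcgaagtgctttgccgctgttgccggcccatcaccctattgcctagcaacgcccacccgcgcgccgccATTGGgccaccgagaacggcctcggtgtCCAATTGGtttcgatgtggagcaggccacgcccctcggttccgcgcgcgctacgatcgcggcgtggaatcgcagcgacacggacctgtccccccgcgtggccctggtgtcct
Srebf1, upstream start (chr11:60220578-60220877, minus strand): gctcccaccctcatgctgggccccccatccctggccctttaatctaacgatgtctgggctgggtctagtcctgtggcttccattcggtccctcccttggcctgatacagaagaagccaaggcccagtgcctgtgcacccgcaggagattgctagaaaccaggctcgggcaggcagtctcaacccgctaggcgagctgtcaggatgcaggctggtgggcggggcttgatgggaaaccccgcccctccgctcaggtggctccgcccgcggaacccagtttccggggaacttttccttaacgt
Srebf1, downstream start (chr11:60210422-60210721, minus strand): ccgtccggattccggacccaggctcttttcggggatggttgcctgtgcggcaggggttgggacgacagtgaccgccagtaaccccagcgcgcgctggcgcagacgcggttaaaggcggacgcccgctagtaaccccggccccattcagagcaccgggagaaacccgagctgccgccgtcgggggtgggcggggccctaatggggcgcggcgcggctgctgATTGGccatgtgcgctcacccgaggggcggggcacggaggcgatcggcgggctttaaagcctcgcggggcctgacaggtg
Insig1 (chr5:28071162-28071461, plus strand): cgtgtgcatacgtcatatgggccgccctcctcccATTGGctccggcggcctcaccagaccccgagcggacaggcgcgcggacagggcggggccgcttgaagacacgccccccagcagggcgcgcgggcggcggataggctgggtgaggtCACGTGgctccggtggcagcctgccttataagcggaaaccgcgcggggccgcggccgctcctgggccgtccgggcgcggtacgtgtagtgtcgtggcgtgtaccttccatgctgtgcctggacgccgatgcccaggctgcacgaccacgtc
The 9 letters TCACNCCAC of the sterol regulatory element, the SREBP site, were found on neither strand of any of the 6 entries, and were present in 1.24% of all 32851 windows of that length. The E-box was in the Insig1 window only, against 7.15% of all windows. CCAAT was in the Fasn window at 3 places, of which 2 overlap, and at 1 place each in those of Acly and Insig1 and in 2 of the 3 Srebf1 entries, of which the downstream one is shown, against 37.4% of all windows. The GC box letters GGGCGG, not capitalised, were in the windows of Acly and Insig1 and in both Srebf1 windows shown, against 35.7% of all windows. A match is a description of letters and not a site, and libraries of 3′ ends cannot tell the Srebf1 starts apart.

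The labels were set beside marker genes before the results. The 10 AEC2 markers (surfactant proteins and others) summed to 119309 to 140165.6 CPM in AEC2 and to 1541.7 to 9879.1 CPM in AEC1. Airway markers summed to 3902.3 to 22866.3 CPM in AEC2 and to 64.9 to 937.1 CPM in AEC1. The part of airway cells in the AEC2 values below was not tested. The 10 AEC1 markers summed to 1830 to 4275.4 CPM in AEC2 and to less, 827.3 to 1121.4 CPM, in AEC1, but did not move as a set. Ager (1384 to 3505.7 CPM in AEC2, 37.1 to 114.4 CPM in AEC1) and Aqp5 were higher in AEC2 without overlap. Pdpn (0 in all AEC2 libraries, 98.8 to 432.9 CPM in AEC1) and Cav1 were higher in AEC1 without overlap. The ranges of the other genes overlapped. In AEC1 the sum of 10 fibroblast and smooth muscle genes was larger than that of the AEC1 markers, at 5906.8 to 14701.7 CPM. AEC1 is therefore used here as the name of a label. In the libraries labelled basophil the defining genes Mcpt8, Fcer1a and Ms4a2 were listed at 0 in all 7, and macrophage markers summed to 3900.8 to 10824.6 CPM. Cd200r3 and Itga2, also of the basophil list, were at 0 in all 7 too, while Alox5ap and Ccl3 were above 0 in each. Of the rest, Gata2 was at 0 in 2 of the 7 and reached 164.2 CPM. Il3ra was at 0 in 3 and reached 9.3 CPM, and Cpa3 was at 0 in 6 and reached 18.8 CPM. The total of that whole list lay between 336.4 and 1463.2 CPM under this label. Its highest total was 12.3 CPM in AEC2, 16.4 CPM in AEC1 and 738 CPM in ILC2. The 10 ILC2 markers summed to 1560 to 3538 CPM in 8 ILC2 libraries. They summed to 85 CPM, with 6 of the 10 at 0, in papain with FK506 replicate 3. Macrophage markers summed to 6522 CPM there, so that library goes against its label. In ILC2 untreated replicate 3, airway markers summed to 33080 CPM and AEC2 markers to 4969 CPM, beside 1560 CPM of ILC2 markers. In ILC2 papain replicate 3, AEC2 markers summed to 6789 CPM and ILC2 markers to 3340 CPM. The glycolysis gene Gapdh had a value of 0 in 5 of 6 AEC2 and 6 of 6 AEC1 libraries, so a 0 below is a listed value and no evidence of absence. AEC2 untreated replicate 1 and AEC2 papain replicate 1 had 4720 and 4441 genes above 0, against 5727 to 6507 in the other AEC2 libraries. In these bulk libraries fewer cells of a type and less RNA per cell cannot be told apart.

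Some synthesis genes of both arms were higher in AEC2 than in AEC1. Over the 3 treatments, 4 of the 8 genes rose in AEC2 (Scd1, Acly, Fdps and Sqle), each by more than 3 log2 units, and none fell. Among all 9841 genes tested, 4.43% were called higher and 8.25% lower. Fasn and Srebf1 had estimates of the same size that missed the threshold, and Scarb1 and Insig1 had estimates of 0.57 and −0.64. The median difference was 3.40 log2 units over the 8 genes and −0.45 over all genes tested. The 8 genes were chosen with earlier results of these data known, so these counts and medians are a description. Differences are on the log2(CPM + 2) scale, which understates low genes, and were tested with limma and Benjamini-Hochberg adjustment over all genes, at a threshold of 0.05.

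**Figure D1:**
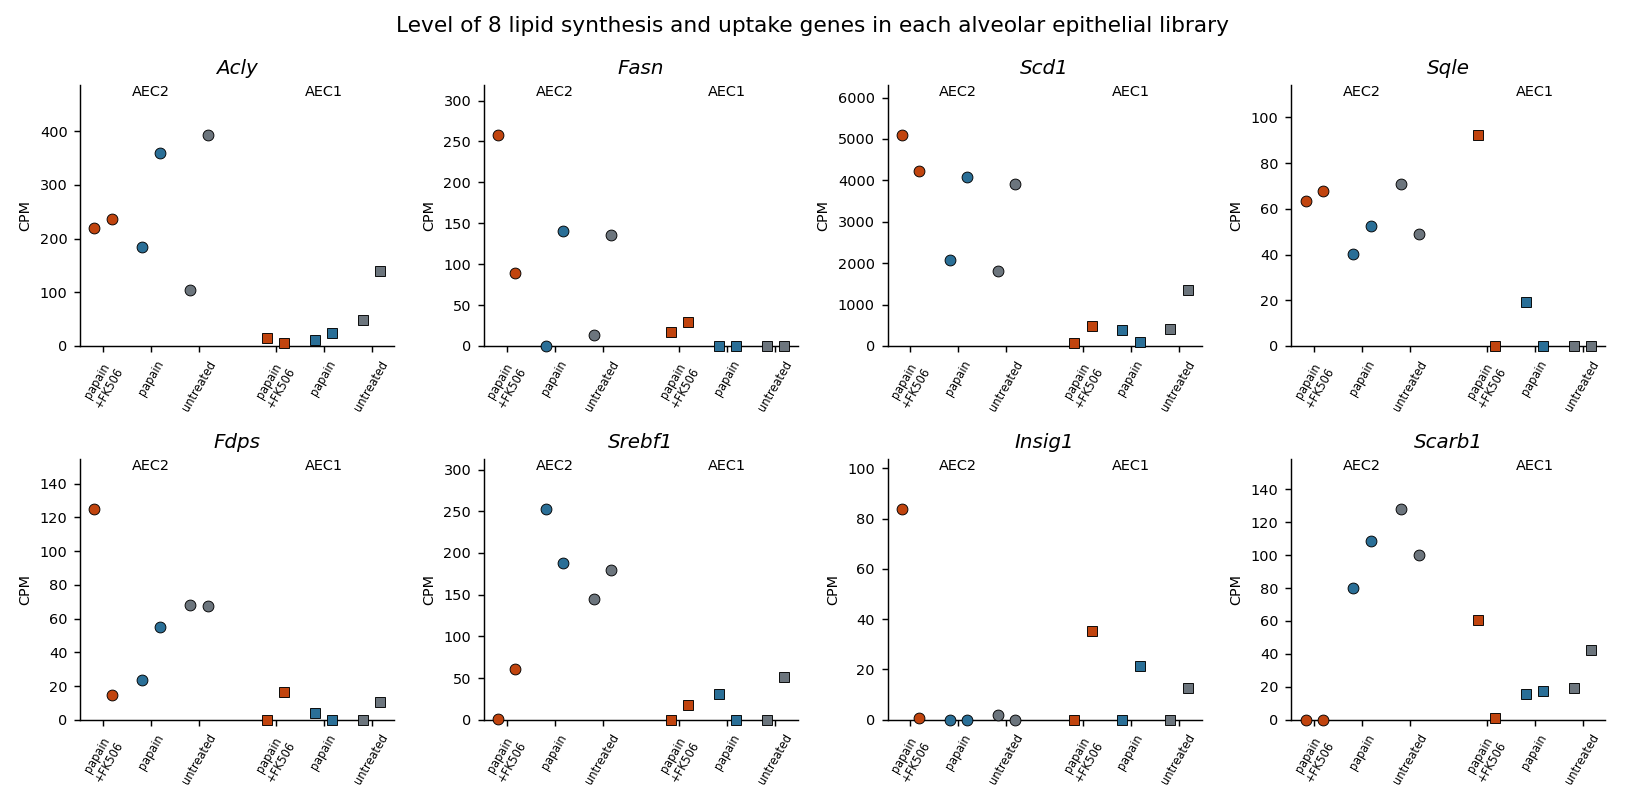
Level in CPM of the 8 genes in each AEC2 library (circles) and AEC1 library (squares), by treatment, 2 libraries a group. The 6 AEC2 libraries lie above all AEC1 libraries for Scd1, and Scarb1 lies at 0 in both AEC2 libraries from papain with FK506.

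Acly (GRCm38 chr11:100476353-100528000, minus strand) makes the cytosolic acetyl-CoA from which both fatty acids and sterols are built. It lay between 105 and 392.4 CPM in the 6 AEC2 libraries (median 228.5) and between 4.7 and 140.3 CPM in the 6 AEC1 libraries (median 19.3). A single AEC1 library, untreated replicate 2, reached above the lowest AEC2 library. The difference was 3.28 (SE 0.60), with an adjusted p of 0.00488 by limma, and it passed in all 21 alternatives. Fasn (chr11:120805846-120824547, minus strand), which joins acetyl and malonyl units into palmitate, lay between 0 and 257.5 CPM in AEC2 (median 112.45) and between 0 and 29.5 CPM in AEC1, where 4 of 6 libraries were at 0. AEC2 papain replicate 1 at 0 and AEC2 untreated replicate 1 at 13 CPM fell within the AEC1 range. Its difference of 3.51 (SE 1.12) had an adjusted p of 0.0659 by limma, while edgeR and DESeq2, run on recovered reads without AEC2 untreated replicate 1, gave 6.04e-05 and 0.000162. It was 0.0115 without AEC2 papain replicate 1, and over 21 alternatives it ranged from 6.04e-05 to 0.148 and passed in 4. Scd1 (chr19:44394455-44407879, minus strand) puts the double bond into stearate and palmitate. It lay between 1806 and 5092.5 CPM in AEC2 (median 3992.25) and between 68.8 and 1361.7 CPM in AEC1 (median 397.2). No AEC1 library reached the lowest AEC2 library, which was the case, in the higher direction, for 2.59% of all genes tested. The difference was 3.56 (SE 0.54, 95% interval 2.37 to 4.74), adjusted p = 0.00155 by limma, and it too passed in all 21 alternatives.

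Fdps (chr3:89093588-89101959, minus strand) makes farnesyl diphosphate, the last step that sterols share with other isoprenoids. It lay between 14.9 and 125 CPM in AEC2 (median 61.35) and between 0 and 16.5 CPM in AEC1 (median 2.1). Only the lowest AEC2 library, from papain with FK506, fell within the AEC1 range. The difference was 3.46 (SE 0.96), adjusted p = 0.0377 by limma. In the annotation a gene model of unknown role, Gm43738, covers the 3′ end of Fdps on the same strand and has no row of its own, so the Fdps values are uncertain. Sqle (chr15:59315077-59331192, plus strand), the oxygenase that commits squalene to sterols, stayed between 40.4 and 71 CPM in AEC2 (median 58.1), the smallest ratio of highest to lowest among the 8 genes there. In AEC1 it was at 0 in 4 of 6 libraries, at 19.1 CPM in papain replicate 1 and at 92.2 CPM in papain with FK506 replicate 1, above every AEC2 library. Its difference of 3.48 (SE 1.02) had an adjusted p of 0.0483 by limma. Both calls lie close to the threshold. Over 21 alternatives the adjusted p ranged from 0.0339 to 0.242 for Fdps, which passed in 9, and from 0.0172 to 0.171 for Sqle, which passed in 4. With 1 library left out at a time, 2 of the 8 genes were called without AEC2 papain with FK506 replicate 1, AEC2 papain replicate 2, either AEC2 untreated library, AEC1 papain replicate 2 or AEC1 untreated replicate 1, and 3 without any other.

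Srebf1 (chr11:60199089-60222581, minus strand) lay between 0.7 and 252.6 CPM in AEC2 (median 162.15) and between 0 and 51.8 CPM in AEC1, where 3 of 6 libraries were at 0. Both AEC2 libraries from papain with FK506 were the low ones of their cell type, and the replicate 1 library of that group fell within the AEC1 range. The difference of 3.35 (SE 1.20) had an adjusted p of 0.0887 by limma, and it passed in none of the 21 alternatives. Rai1 covers the 3′ end of Srebf1 on the opposite strand, and whether counting used strand is not given, so reads of the pair cannot be told apart. Rai1 was listed at 0 in 5 AEC2 libraries and at 0.8 CPM in the other, and at 0 in 4 AEC1 libraries, at 2.1 CPM in papain replicate 1 and at 56.4 CPM in untreated replicate 2, the library in which Srebf1 was highest among AEC1. Insig1 (chr5:28071363-28078662, plus strand) was above 2 CPM in only 1 AEC2 library, papain with FK506 replicate 1 at 83.8 CPM, and in 3 AEC1 libraries, at 12.7 to 35.4 CPM. Its difference was −0.64 (SE 1.19, 95% interval −3.26 to 1.98, limma adjusted p = 0.764), and −3.77 with edgeR and −3.59 with DESeq2 on recovered reads (adjusted p = 0.433 and 0.415), both without AEC2 untreated replicate 1.

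Scarb1 (chr5:125277087-125341094, minus strand) encodes SR-BI, which takes up cholesteryl ester from high-density lipoprotein. It lay between 0 and 128 CPM in AEC2 (median 90.05) and between 1.2 and 60.7 CPM in AEC1 (median 18.25). The 4 AEC2 libraries from papain and untreated mice lay above every AEC1 library, and the 2 from papain with FK506 were below them all. Averaged over the treatments the difference was 0.57 (SE 0.82, 95% interval −1.24 to 2.39), adjusted p = 0.686 by limma, and it turned to −1.22 with edgeR and −1.19 with DESeq2 on recovered reads, both without AEC2 untreated replicate 1.

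**Figure D2:**
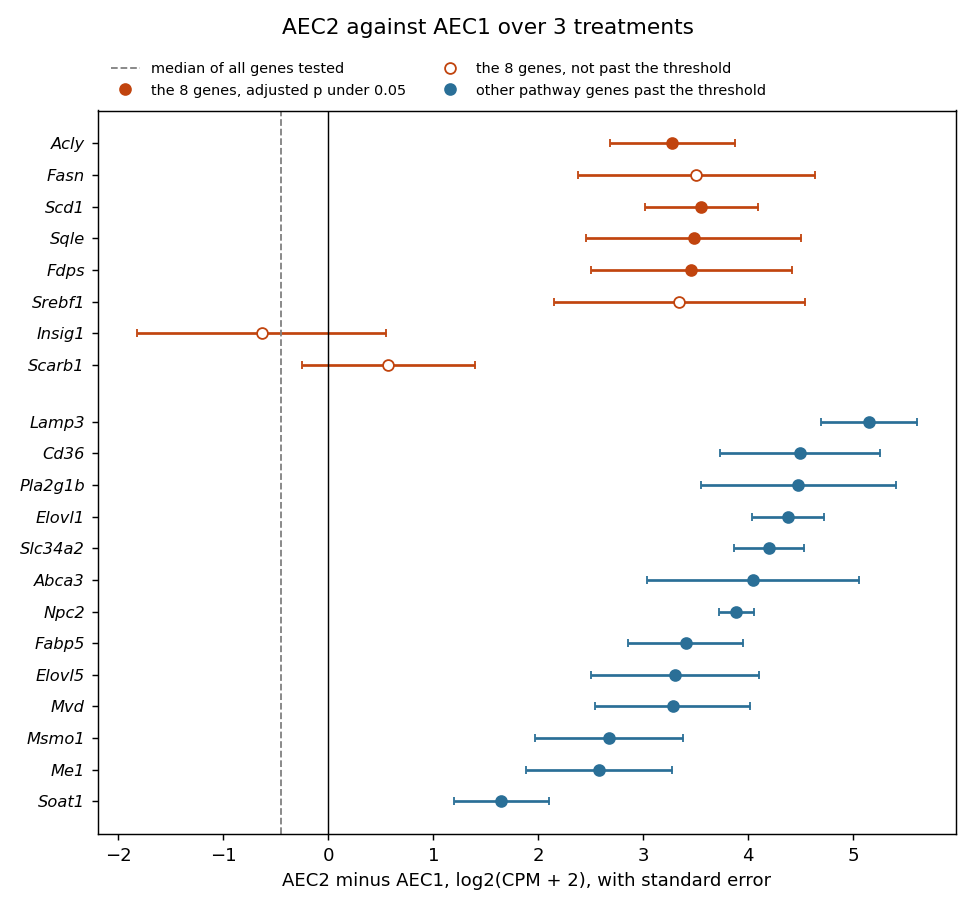
Difference between AEC2 and AEC1 on the log2(CPM + 2) scale with its standard error, for the 8 genes (above) and for other genes of 5 lipid lists that passed the threshold (below), from 6 libraries of each cell type. The 8 genes fall into 6 between 3.28 and 3.56 and 2 at 0.57 and −0.64, and the dashed line at −0.45 is the median of all genes tested.

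Beyond the 8 genes, 5 lists of lipid genes were counted in the same comparison, to be read against the same 4.43% higher and 8.25% lower among all genes. The lists include those of the 8 genes that belong to them. They too were chosen with earlier results of these data known, so their counts and medians are a description. Of 18 cholesterol synthesis genes tested, 4 were higher and none lower, with a median difference of 2.00. Beside Fdps and Sqle they were Mvd, which decarboxylates mevalonate diphosphate, at 3.28 (SE 0.74), and Msmo1, a C4-methyl sterol oxidase, at 2.67 (SE 0.71). Mvd passed in 20 of 21 alternatives and Msmo1 in 10, so of these 4 calls only that of Mvd held in most of them. Idi1 was listed at 0 in all 12 libraries. Of 12 fatty acid synthesis genes tested, 5 were higher and none lower, with a median of 2.69. Elovl1, which elongates long-chain acids, was the clearest of them, with 1457 to 2911.6 CPM in AEC2 against 50.2 to 230 CPM in AEC1, a difference of 4.38 (SE 0.34, limma adjusted p = 2.09e-05). Elovl5 and Me1, the malic enzyme that supplies NADPH, were also higher, at 3.30 (SE 0.80) and 2.58 (SE 0.69), and passed in 16 and 10 of 21 alternatives. Elovl6, Acacb and Fads2 were listed at 0 in all 6 AEC2 libraries.

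**Figure D3:**
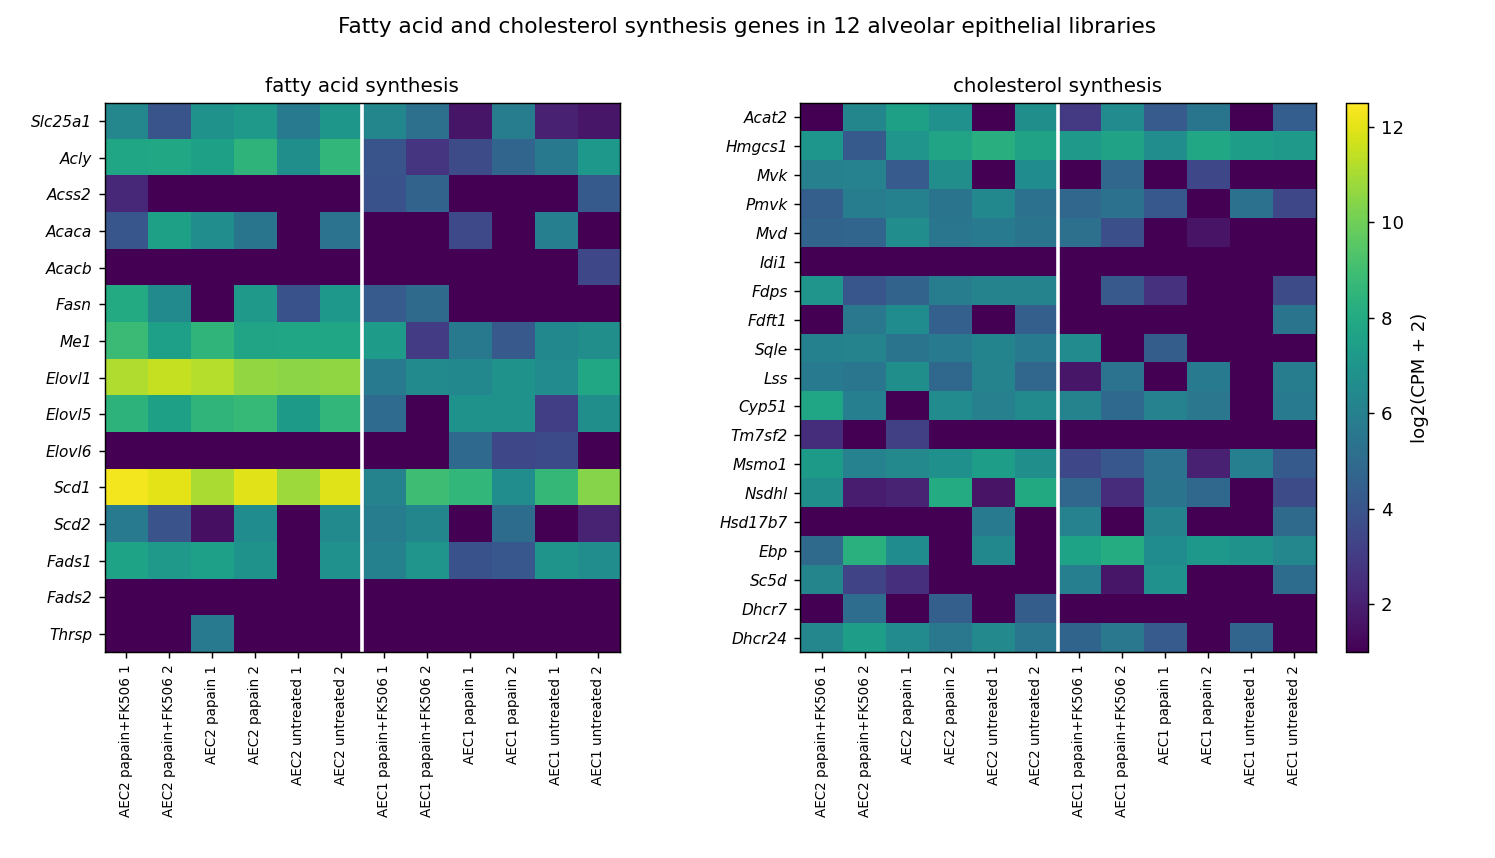
Level as log2(CPM + 2) of 15 fatty acid synthesis genes (left) and 19 cholesterol synthesis genes (right) in 12 alveolar epithelial libraries, AEC2 left of the white line and AEC1 right of it; the darkest shade is a value at 0. Scd1 and Elovl1 are the bright rows of AEC2, with at least 1806 and 1457 CPM in every AEC2 library.

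Of 11 sterol regulation genes tested, 1 was higher, Stard4, a cholesterol transfer protein gene with 0 to 69 CPM in AEC2 that was listed at 0 in all AEC1 libraries (limma adjusted p = 0.0328, passing in 11 of 21 alternatives). The median of that list was 0.43. Of 12 uptake and efflux genes tested, 4 were higher and 1 lower, with a median of 0.66. Npc2, a lysosomal cholesterol carrier, stood at 5987 to 14423.1 CPM in AEC2 and 357.1 to 1492.8 CPM in AEC1, a difference of 3.89 (SE 0.17, limma adjusted p = 3.39e-07). Cd36, a fatty acid translocase, stood at 127.6 to 337 CPM in AEC2 and 0 to 61.7 CPM in AEC1, a difference of 4.49 (SE 0.76, limma adjusted p = 0.00324). Fabp5, a fatty acid binding protein gene, and Soat1, which esterifies cholesterol, were higher by 3.40 (SE 0.55) and 1.65 (SE 0.45). Fabp5 passed in all 21 alternatives and Soat1 in 8. Lrp1, an endocytic receptor of the low-density lipoprotein receptor family, was listed at 0 in all AEC2 libraries and stood at 396.7 to 784.3 CPM in AEC1 (limma adjusted p = 1.18e-05). The fibroblast and smooth muscle markers moved with Lrp1, at 0 to 6.7 CPM in AEC2 against 5906.8 to 14701.7 CPM in AEC1, with up to 4 of the 10 at 0 in an AEC1 library, and their part in the result was not tested. Of 12 surfactant phospholipid genes tested, 5 were higher and none lower, with a median of 1.70: Lamp3 and Abca3, of the lamellar body that stores surfactant, the phosphate carrier gene Slc34a2, the phospholipase gene Pla2g1b, and Lpcat1, which remodels phosphatidylcholine and was listed at 0 in all AEC1 libraries. Lamp3 was higher by 5.15 (SE 0.46), Pla2g1b by 4.48 (SE 0.93), Slc34a2 by 4.20 (SE 0.33) and Abca3 by 4.05 (SE 1.01, passing in 15 of 21 alternatives). Slc34a2, Lamp3 and Abca3 are also AEC2 markers. Mvd, Msmo1, Idi1, Elovl5, Elovl6, Me1, Acacb, Fads2, Stard4, Fabp5 and Soat1 were named after their values were seen.

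Scd1 was set beside the AEC2 markers library by library. It amounted to 1.48 to 3.83% of the marker sum in AEC2 and to 3.35 to 16.7% of it in AEC1. The share was lowest in AEC2 papain replicate 1 and AEC2 untreated replicate 1, at 1.48 and 1.51%, and between 3.24 and 3.83% in the other 4 AEC2 libraries. In AEC1 the marker sum was 2053.8 and 4513.1 CPM in papain with FK506, 2374.1 and 1541.7 CPM in papain, and 6443.2 and 9879.1 CPM in untreated libraries, with 1 to 3 of the 10 markers at 0 in a library. The library with the highest marker sum among AEC1 was also the one with the highest Scd1. The part of AEC2 RNA in the AEC1 values was not tested.

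**Figure D4:**
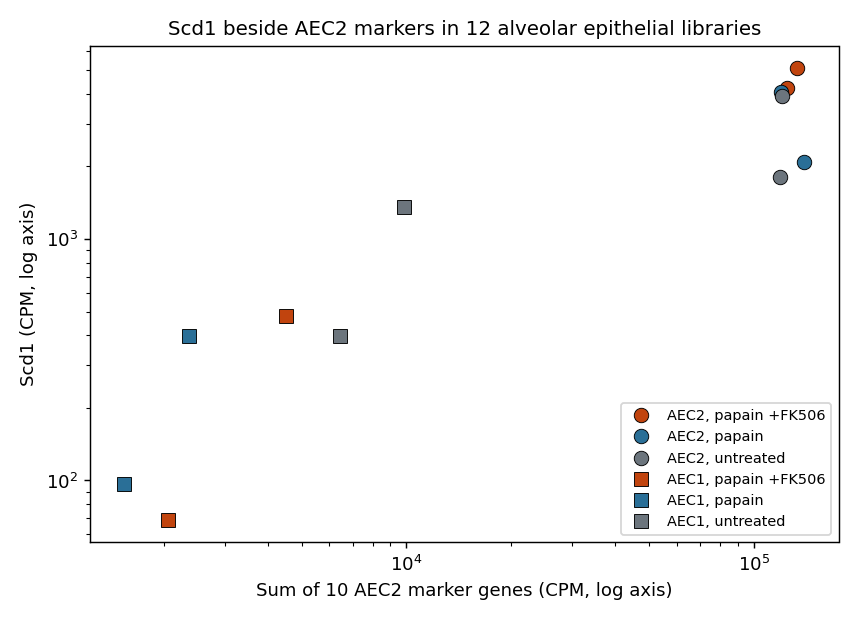
Scd1 in CPM against the sum of 10 AEC2 marker genes in CPM, both on log axes, for 6 AEC2 libraries (circles) and 6 AEC1 libraries (squares), coloured by treatment. AEC1 libraries lie at 1541.7 to 9879.1 CPM of markers and 68.8 to 1361.7 CPM of Scd1, and AEC2 libraries form a separate group at 119309 CPM of markers and above.

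Within AEC2, no gene passed the threshold in any of the 3 treatment comparisons (limma, 0% of 6719 genes tested), so none of the 8 genes was called. Genes with an unadjusted p under 0.05 numbered 284 in papain with FK506 against papain, 307 in papain with FK506 against untreated and 15 in papain against untreated. DESeq2 on recovered reads, without AEC2 untreated replicate 1, called 44 genes in the first of these and 17 in the second, in each case with Scarb1 among them. edgeR on the same reads called none of the 8 genes. Insig1 did not pass the filter on low values, which left 7 of the 8 genes. The comparisons share libraries, and with 2 libraries a group many genes fall apart without overlap. In papain with FK506 against papain this held for 2 of the 7 genes in the higher direction and 2 in the lower, beside 16.7% and 10.7% of all genes. Against untreated it held for 1 and 2 of the 7, beside 18.9% and 11%, and in papain against untreated for 1 and 1, beside 13.6% and 2.4%.

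Scarb1 was listed at 0 in both AEC2 libraries from papain with FK506, against 80.1 and 108.4 CPM in those from papain and 128 and 100 CPM in untreated ones. The 4 libraries without FK506 lay far above these, which at their depth could hold up to 2.25 and 2.49 CPM (3 reads, counting error only). The unadjusted p was 0.00752 against papain and 0.00480 against untreated, with limma adjusted p-values of 0.909 in both. DESeq2 gave adjusted p-values of 0.00228 and 0.0201, and edgeR 0.9998 and 0.9999. In AEC2 63.4% of 2459 genes averaging 30 to 100 CPM were listed at 0 in at least 1 of the 6 libraries. Scarb1 falls in that band with its own zeros in the mean. The share counts a 0 in any library, and genes at 0 in both libraries of 1 group only were not counted, so it is no measure of the Scarb1 pattern. In AEC1 Scarb1 stood at 60.7 and 1.2 CPM in papain with FK506, 15.9 and 17.4 CPM in papain and 19.1 and 42.6 CPM in untreated libraries. The difference between AEC2 and AEC1 in the response to FK506 was −5.06 (SE 2.02, unadjusted p = 0.0291, limma adjusted p = 0.794).

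Srebf1 stood at 0.7 and 61.3 CPM in AEC2 from papain with FK506, against 252.6 and 188.1 CPM from papain and 145 and 179.3 CPM from untreated mice. Here too both libraries with FK506 lay below the other 4, though they differed widely from each other. Its difference was −4.05 (SE 1.38) against papain and −3.77 (SE 1.38) against untreated, with limma adjusted p-values of 0.909 in both and unadjusted ones of 0.0135 and 0.0193. Without AEC2 papain with FK506 replicate 2, the limma adjusted p against untreated was 0.0489, with the 1 library left in that group assumed to vary like those of the other groups. Without replicate 1 of that group the difference against untreated was −1.501.

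The fatty acid synthesis genes Scd1, Fasn and Acly did not share that order in AEC2. None of them passed the threshold by limma, nor did Srebf1, and the cutting of SREBP-1 was not measured. Scd1 stood at 5092.5 and 4217.5 CPM in papain with FK506, 2079.4 and 4072.5 CPM in papain, and 1806 and 3912 CPM in untreated libraries. Both libraries with FK506 lay above the other 4. The difference was 0.68 (SE 0.44, 95% interval −0.28 to 1.64) against papain and 0.66 (SE 0.44, 95% interval −0.30 to 1.62) against untreated, limma adjusted p = 0.909 and 0.919. Fasn stood at 257.5 and 88.7 CPM in papain with FK506, against 0 and 140.5 CPM in papain and 13 and 136.2 CPM in untreated libraries. These ranges overlap, and the difference of 3.15 (SE 1.95) against papain became 0.10 without AEC2 papain replicate 1. Acly stood at 220 and 237 CPM in papain with FK506, 185 and 359.8 CPM in papain, and 105 and 392.4 CPM in untreated libraries, with overlap throughout. In papain and untreated AEC2, replicate 1 was lower than replicate 2 for Scd1, Fasn and Acly. The same replicate 1 libraries had the fewest genes above 0, and airway markers summed to 3902.3 and 4835 CPM in them, against 22866.3 and 21862.4 CPM in the replicate 2 libraries. The part of either in these values was not tested.

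In the cholesterol arm of AEC2, Sqle stood at 63.6 and 67.9 CPM in papain with FK506, 40.4 and 52.6 CPM in papain, and 71 and 49.2 CPM in untreated libraries. The FK506 libraries lay above those of papain and within the untreated range. Fdps stood at 125 and 14.9 CPM in papain with FK506, 23.3 and 55 CPM in papain, and 68 and 67.7 CPM in untreated libraries. The FK506 libraries thus held both the highest and the lowest value. Insig1 was at 83.8 and 0.8 CPM in papain with FK506, at 0 in both papain libraries, and at 2 and 0 CPM in untreated ones.

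Papain alone moved none of the 7 genes past the threshold in AEC2, and their lowest unadjusted p was 0.447, for Fasn. The 95% interval of the Scd1 difference was −0.99 to 0.93. Intervals of the other genes were wider, and those of Fasn reached from −5.81 to 2.74.

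In AEC1, papain with FK506 against untreated gave 2 called genes of 8178 tested (0.0245%, limma) and the other comparisons 0%, with 496 genes in papain with FK506 against papain and 761 in papain against untreated at an unadjusted p under 0.05. None of the 8 genes was called, also not by edgeR or DESeq2 on recovered reads, which called 0 and 65 genes in papain with FK506 against papain and 15 and 255 in papain against untreated. Fasn was at 17.5 and 29.5 CPM in papain with FK506 and listed at 0 in both papain and both untreated libraries. Its unadjusted p was 0.0134 in each comparison, and the adjusted p by limma was 0.651 against papain and 0.314 against untreated. It was the one of the 8 genes higher without overlap in these comparisons, beside 19.5% and 24.9% of all genes. Acly stood at 14 and 4.7 CPM in papain with FK506, 10.6 and 24.6 CPM in papain and 48.3 and 140.3 CPM in untreated AEC1. The untreated libraries lay above the others, as they did for the AEC2 marker sum given above. Scd1 stood at 68.8 and 478.9 CPM in papain with FK506, 396 and 96.4 CPM in papain and 398.4 and 1361.7 CPM in untreated AEC1. Papain lay below untreated without overlap for Scarb1, Scd1 and Acly, 3 of the 8 genes, beside 14.2% of all genes tested, and above it for none, beside 19.2%. Papain with FK506 lay below untreated for Acly alone, beside 14.4% of all genes, and below papain for none, beside 12.9%. In the interaction tests between AEC2 and AEC1 no gene passed the threshold for papain or for FK506 (limma, 454 and 566 genes with an unadjusted p under 0.05). On recovered reads edgeR called 14 and 20 genes and DESeq2 3 and 11, with none of the 8 among them.

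Values of the 8 genes above 0 made up 43 of 72 in ILC2 and 35 of 56 under the basophil label, against 42 of 48 in AEC2 and 31 of 48 in AEC1. The tables of these cells sum to 519768 to 636598 CPM in ILC2 and 612434 to 672357 CPM under the basophil label, against 986819 to 992526 CPM in AEC1 and 989854 to 992311 CPM in AEC2, so levels set across cell types are a description. By median, AEC2 was the highest of the 4 cell types for Acly, Fasn, Scd1, Fdps, Sqle and Srebf1. The basophil label was the highest for Scarb1, at 90.5 CPM against 90.05 CPM in AEC2, and AEC1 for Insig1, at 6.35 CPM. Of all neighbours in these orders, only AEC2 and AEC1 for Scd1 had ranges that did not overlap.

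**Figure D5:**
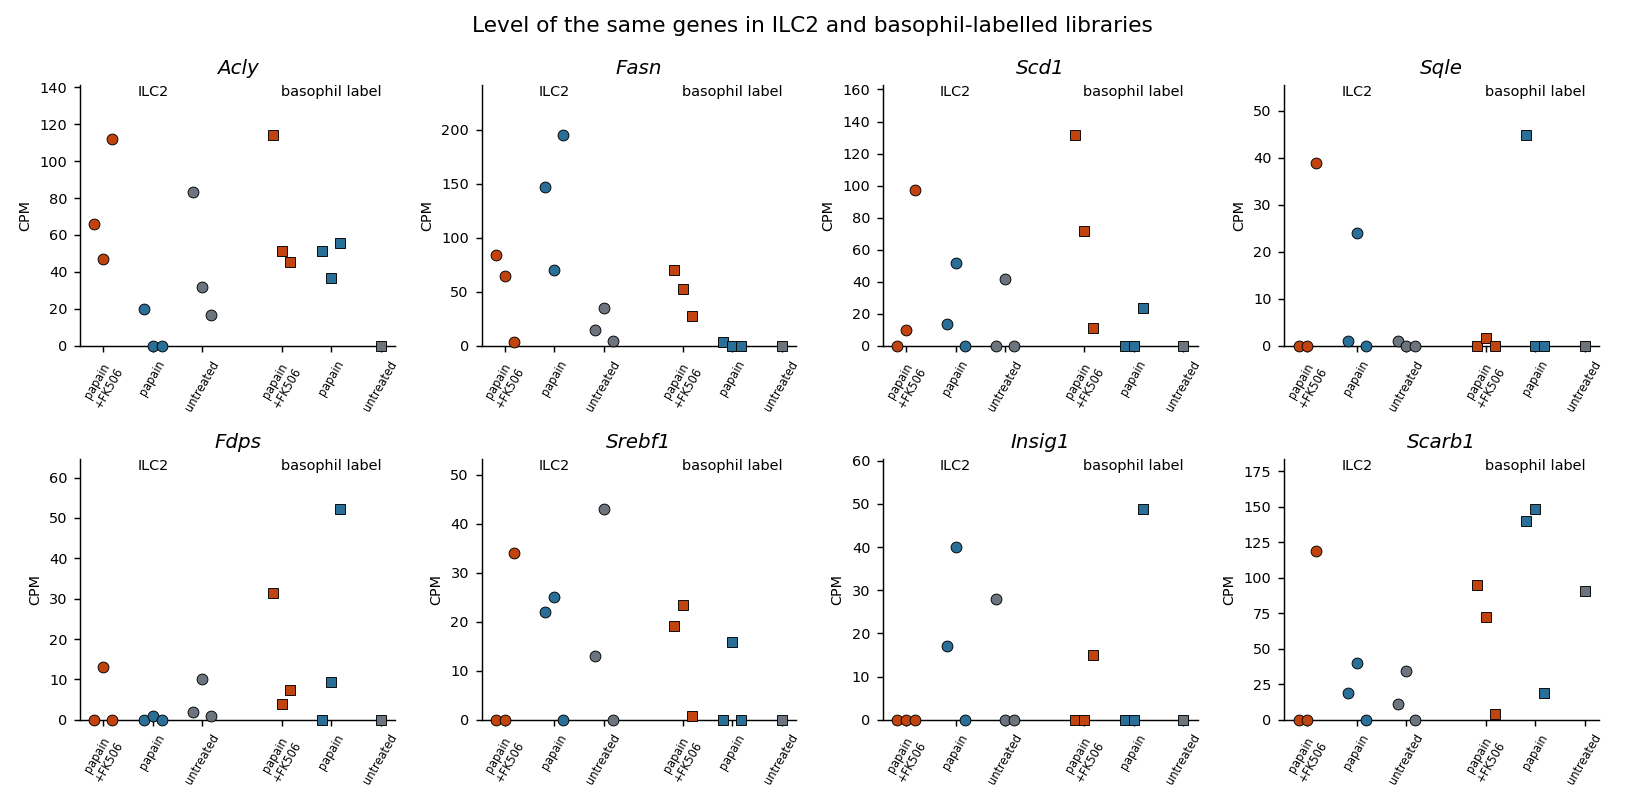
Level in CPM of the 8 genes in each ILC2 library (circles, 3 a group) and each library labelled basophil (squares, 3, 3 and 1), by treatment. Fasn in ILC2 lies at 70 to 195 CPM in papain and at 5 to 35 CPM in untreated libraries.

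Fasn was the one gene of the 8 above 0 in every ILC2 library. It stood at 84, 65 and 4 CPM in papain with FK506, 147, 70 and 195 CPM in papain and 15, 35 and 5 CPM in untreated libraries. The last value of each group is from replicate 3. Those libraries held the airway, AEC2 or macrophage markers given above, whose part was not tested. All papain libraries lay above all untreated ones, as for 4.31% of all genes tested. The difference was 2.69 (SE 1.31, unadjusted p = 0.0453, limma adjusted p = 0.985), 1.83 in replicates 1 and 2 alone, which carry a different code in their names from replicate 3, and 1.63 without papain replicate 3. Acly stood at 66, 47 and 112 CPM in papain with FK506, 20, 0 and 0 CPM in papain and 83, 32 and 17 CPM in untreated ILC2. The papain libraries with FK506 lay above those with papain alone, as for 4.05% of genes tested, with a difference of 3.95 (SE 1.54, unadjusted p = 0.0134, limma adjusted p = 0.910). The highest of these Acly values is from papain with FK506 replicate 3, the library with 85 CPM of ILC2 markers, and without it the difference was 2.95 (limma adjusted p = 0.835). Neither passed the threshold. These were the only genes of the 6 tested that did not overlap, with none lower in either comparison, beside 3.03% of all genes lower in papain against untreated and 2.79% in papain with FK506 against papain. In papain with FK506 against untreated all 6 overlapped, beside 5.1% of genes higher and 3.24% lower without overlap. In ILC2, limma called 1 of 6271 genes in papain with FK506 against papain (0.0159%), none of the 8, which was 0 genes without papain with FK506 replicate 3, and none in the other 2 comparisons, where 234 (papain) and 250 (papain with FK506) genes against untreated had an unadjusted p under 0.05. Scarb1 at 119 CPM, Scd1 at 97 CPM and Sqle at 39 CPM were each highest in papain with FK506 replicate 3. In that library macrophage markers, at 6522 CPM, were the highest among ILC2 libraries, and AEC2 markers summed to 4613 CPM. Their part in these values was not tested. Sqle and Fdps did not pass the filter on low values in ILC2.

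Under the basophil label, papain with FK506 could be compared with papain. Fasn stood at 70.3, 53 and 27.6 CPM in papain with FK506 and 3.8, 0 and 0 CPM in papain. Scd1 stood at 131.4, 71.6 and 11.4 CPM in papain with FK506 and 0.3, 0 and 23.5 CPM in papain. Fasn did not overlap, as for 5.77% of genes tested in that direction, and Scd1 did. None of the 5 genes tested was lower without overlap, beside 5.62% of all genes. The difference was 4.13 for Fasn (SE 1.5, unadjusted p = 0.0147, limma adjusted p = 0.687) and 3.38 for Scd1 (SE 1.67, limma adjusted p = 0.812). No gene was called (limma, 0% of 5853, 354 with an unadjusted p under 0.05). AEC2 markers moved with them, at 3123.3 to 11315.7 CPM in papain with FK506 against 1397.6 to 2555.2 CPM in papain, with at most 1 of the 10 at 0 in a library. Within papain with FK506, Scd1 and the marker sum had the same order. Within papain they did not, with Scd1 at 0.3, 0 and 23.5 CPM beside marker sums of 2555.2, 1397.6 and 1839.6 CPM. Fibroblast and smooth muscle markers also moved with Fasn and Scd1, at 1784.6 to 2656.6 CPM in papain with FK506 against 155.5 to 624.6 CPM in papain (0 to 1 and 1 to 4 of the 10 at 0). ILC2 markers did so too, at 115.9 to 1142.5 CPM in papain with FK506 against 5.8 to 86.9 CPM in papain (1 to 7 and 6 to 9 of the 10 at 0). The part of these cell types was not tested. Scarb1 stood at 95.1, 72.4 and 4.1 CPM in papain with FK506, 139.9, 148.3 and 18.8 CPM in papain and 90.5 CPM in the untreated library, where the other 7 genes were listed at 0 among 2002 genes above 0. Sqle, Fdps and Insig1 did not pass the filter under this label.

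For each gene the 3 most similar patterns were sought by Pearson's r of the mean log2(CPM + 2) over the 12 groups of cell type and treatment, among 11715 genes. The 12 points come from 4 cell types, and groups of a cell type share their kind of table, so r is a description. For Scd1 the highest was Slc34a2 at 0.982, followed by Ptprf at 0.968 and Gstk1 at 0.967. Fdps was most like Dcxr at 0.959, with Pls1 and Chchd10 at 0.953, and Sqle most like Tmem163 at 0.945, with Cox6a2 at 0.938 and Pgm2 at 0.936. Acly was most like Map1lc3a at 0.943, followed by Prnp at 0.940 and Pnpla2, which encodes the triglyceride lipase ATGL, at 0.939. Srebf1 was most like Bmp5 and Ptprn2 at 0.931 and Sox2 at 0.930. Insig1 was most like Nubp2 at 0.912, Mrpl15 at 0.902 and Vbp1 at 0.896. Lower values were found for Fasn, with Coro2b at 0.835 and Pim2 at 0.830, and for Scarb1, with Sptlc2, which begins sphingolipid synthesis, at 0.830, Btf3l4 at 0.796 and Wipf2 at 0.795. None of the 8 genes was among the 3 nearest of another.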

How the data were processed

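Sorted lung cells gave 10 ng of RNA for each 3′ end library (Lexogen QuantSeq), per the labels' protocols. STAR 2.7.0c, featureCounts 1.6.0, mm10 and GRCm38.p6 are named, with no role, in the submitters' processing notes. The authors deposited CPM for AEC1, for basophil and for 5 AEC2 libraries. All ILC2 libraries and AEC2 untreated replicate 1 hold whole numbers on that scale, handled as a score: CPM that the authors had rounded. What CPM was divided by, strand setting and treatment of multiply mapped reads are not given in the sources used here. From the steps of values under 25 CPM, 1 read was worth about 1 CPM in AEC, which gave 847000 to 975000 reads in AEC1 and 1207000 to 1335000 in 5 AEC2 libraries, with 100% of these values within 0.1 read of a whole number. That depth is unknown for the rounded libraries.

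Genes at 10 CPM in at least 2 (AEC) or 3 libraries (ILC2, basophil) were tested. Values were scaled by TMM factors (edgeR 4.0.16), and log2(CPM + 2) was fitted with limma 3.58.1 in R 4.3.3 (trend, two-sided, Benjamini-Hochberg over all genes), with a term for the file-name code in ILC2. The fits were tested on simulated data. Changes were put only into genes above a floor of mean level, and the frequent zeros of these libraries were not modelled. That test therefore says little of low genes. Alternatives were the pseudocount, scaling, filter, replicate block, each library left out, the code term in ILC2, and edgeR and DESeq2 1.42.0 on recovered reads. The single untreated basophil library was not tested. Positions came from GENCODE on GRCm38 and promoters from RefSeq on GRCm38.p6. The 8 genes, the lists and the tests were chosen with earlier results of these data known. All 8 genes are named, with list genes past the threshold in AEC2 against AEC1, up to 8 per direction, and the 3 genes of most similar pattern to each, apart from genes that are not reported here.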

Additional observations from a re-analysis of the deposited data

Results flagged for a closer look

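In each of 16 sets of 6 libraries (8 genes in AEC2 and in AEC1) the highest and lowest library were set against the others, and 4 sets held a library whose gap to its nearest neighbour took up more of the range than Dixon's 95% critical value of 0.625 allows. Chance alone would mark about 1 set in 20 if values followed a normal distribution. These CPM values need not do so. Sqle was at 0 in 4 of 6 AEC1 libraries and Insig1 in 3 of 6 AEC2 libraries, and all 4 flags are of the highest library. The flags are therefore a description and no excess over chance. Insig1 stood at 83.8 CPM in AEC2 papain with FK506 replicate 1, and no other AEC2 library exceeded 2 CPM. Sqle stood at 92.2 CPM in AEC1 papain with FK506 replicate 1, with the next AEC1 library at 19.1 CPM. Scd1 at 1361.7 CPM and Acly at 140.3 CPM were both set apart in AEC1 untreated replicate 2, the AEC1 library with the highest sum of AEC2 markers, 9879.1 CPM. Their part in it was not tested.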

How the results depend on the processing

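In AEC2 against AEC1, Scd1 and Acly kept their direction and stayed past the threshold in all 21 alternatives. The main fit called 4 of the 8 genes, beside 12.7% of all 9841 genes tested in either direction. The number of the 8 genes called was 3 under pseudocount 1, either other scaling, no filter, edgeR and DESeq2, 4 with pseudocount 5 and with the replicate block, and 2 to 3 with 1 library left out. Equal counts did not mean the same genes. With edgeR and DESeq2 the genes called were Scd1, Acly and Fasn, without Fdps and Sqle. The share over all genes is not given for each setting, so these counts are a description. Scarb1 turned to −1.22 with edgeR and −1.19 with DESeq2, and ranged from −0.14 (without AEC1 papain with FK506 replicate 2) to 1.17 with 1 library left out. Insig1 ranged from −1.45 to 0.17 (without AEC2 papain with FK506 replicate 2) in the same way, and was 0.044 without AEC1 papain with FK506 replicate 2, −3.77 with edgeR and −3.59 with DESeq2. Without the 2 AEC2 libraries that had under 5000 genes above 0, chosen after seeing the data, 3 of the 8 genes were called (Fasn with an adjusted p of 0.00431), and the response to FK506 differed between AEC2 and AEC1 for 258 genes, none of the 8. Here, and wherever leaving out a library leaves 1 in a group, that library is assumed to vary like the other groups.

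DESeq2 called 44 genes (1 of the 8, Scarb1) in AEC2 papain with FK506 against papain and 17 (1 of the 8, Scarb1) against untreated. In AEC1 it called 255, 65 and 403 genes in papain against untreated, papain with FK506 against papain, and papain with FK506 against untreated, and edgeR 15 and 29 in the first and last of these, where limma called 0 with pseudocount 1 and 8 with pseudocount 5. The differences between AEC2 and AEC1 in the response numbered 14 (edgeR) and 3 (DESeq2) for papain and 20 and 11 for FK506. In ILC2, papain against untreated gave 1 call with pseudocount 5, 2 with median-of-ratios scaling, 3 with no scaling, 2 with the replicate block and 1 without the code term. Papain with FK506 against papain gave 2 with pseudocount 5, 2 with no scaling and 0 in replicates 1 and 2 alone, and against untreated 1 with pseudocount 5 and with each other scaling. The causes were not tested.

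With 1 library left out, calls ranged from 0 to 2, 0 to 1 and 0 to 5 genes in the AEC2 comparisons of papain against untreated, papain with FK506 against papain, and papain with FK506 against untreated (1 of the 8, Srebf1, without AEC2 papain with FK506 replicate 2), from 0 to 1 in AEC1 papain with FK506 against untreated, 0 to 2 in ILC2 papain against untreated and in papain with FK506 against papain, 0 to 5 under the basophil label, and 0 to 1 in the difference in the response to papain. Deviations of same-numbered libraries correlated at 0.446 between AEC2 untreated and papain, near 0 in the other AEC pairs, and at 0.0512 to 0.235 in ILC2. The labels do not say that libraries are paired. The same lung number recurs in the AEC2 and AEC1 titles of a treatment, and whether it names the same lung is not given. Pairing by lung between these cell types was not tested. The block is therefore an alternative only. It left 0 calls in AEC2 papain against untreated and ended no call among the 8 genes. Low genes are the least certain: 96.2% of genes averaging 10 to 30 CPM in AEC2 were at 0 in some library, against 7.95% at 100 to 300 CPM, and the cause of these zeros was not tested.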
